A study of Mus musculus with 27 samples.

Results

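Mouse thyroid gland organoids (mTGOs) that had received 4 Gy of photon irradiation were followed from day 7 to day 11 of culture. The libraries were chosen by their labels alone, as every 4 Gy library of the 2 days, which gave 6 of the 27 libraries of the series, 3 per day. All mTGOs came from thyroid glands of C57BL/6 mice 8 to 12 weeks old, were grown in Matrigel in DMEM/F12 with EGF, FGF2, the ROCK inhibitor Y27632 and B27, and were irradiated on day 5, so that day 7 is 2 days and day 11 is 6 days after the dose. The same culture identifiers, mTG11, mTG12 and mTG14, recur at each dose and day, and values below are given in that order. Unirradiated (0 Gy), 2 Gy and 7 Gy mTGOs of the same 3 cultures and days, also 3 libraries each, served only to show where the course after 4 Gy differed. The design text names 4 mice, whereas the methods name 3 animals for the sequenced RNA and the labels number the mice 1 to 3, and the sources used here do not say which number belongs to which identifier. Each library is bulk RNA, in which fewer cells of a type and less RNA per cell cannot be told apart.

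Thyroid epithelium stores hormone as thyroglobulin in follicles, while stratified squamous epithelium keeps a dividing basal layer on a basement membrane and sheds cells that have filled with cross-linked envelope proteins. Ionising radiation breaks DNA, and the p53 protein, stabilised by the break signal, turns on genes that halt the cell cycle, among them the CDK inhibitor Cdkn1a. Interferons raise a common set of antiviral genes through STAT and IRF transcription factors, and class I molecules, which the same signals raise, display peptides on the cell surface.

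Library totals were between 3430300 and 5010592 counts at day 7 and between 3622848 and 4444834 at day 11, so that 3 counts in one library corresponded to between 0.599 and 0.875 CPM, the counts scaled to a library of 1000000. Counts of mitochondrial mRNA made up 1.36% to 1.54% of the libraries at day 7 and 1.28% to 1.54% at day 11, and ribosomal RNA 7.12% to 13.4% and 9.84% to 14.1%. The thyroid label was checked against its defining genes. Slc5a5, Tshr, Pax8, Slc26a7, Dio1 and Iyd had at most 5 counts summed over the 3 libraries of a day, and the thyroglobulin gene Tg stood at 1.17, 4.99 and 0.679 CPM at day 7 and 1.62, 7.87 and 1.10 CPM at day 11, with no called change. Keratin 5 (Krt5), a basal squamous keratin, stood at 5385, 5626 and 5004 CPM at day 7. The transcription factors Nkx2-1 and Foxe1, which thyroid shares with other foregut epithelia, were present, and their values are given with the dual oxidases.

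Of 17770 genes tested, 3534 (19.9%) changed between day 7 and day 11 at an adjusted p under 0.05 (edgeR quasi-likelihood test with culture as a block, Benjamini-Hochberg adjustment), 1797 (10.1%) higher and 1737 (9.77%) lower at day 11. These shares of all genes are the background for the counts of list members called over time at 4 Gy in this fit. The median log2 fold change over all tested genes was 0.03, and 5871 genes had an unadjusted p under 0.05. Squamous envelope and stress keratin genes, cell division genes and sterol synthesis genes were lower at day 11, while dual oxidase 2 and its maturation factor, mucosal defence genes, interferon-stimulated genes and class I antigen presentation genes were higher. Culture mTG11 weighed most on the count: without it 1109 genes were called, on 4 libraries and 1 residual degree of freedom, against 3460 without mTG12 and 3305 without mTG14, and DESeq2 called 1681. List counts under these settings have their own backgrounds, the genes called higher and lower among all tested. Without mTG11 they were 547 and 562 of 16846, without mTG12 1835 and 1625 of 16323, and without mTG14 1624 and 1681 of 16694. DESeq2 gave 836 and 845 of 17770, and the fit without the culture block 1451 and 1498 of 17770. Scaled by library totals alone, 1474 genes were higher and 2133 lower, with a median log2 fold change of -0.05 over all genes.

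Duoxa2 (chr2:122129380-122133366, plus strand; GRCm39 for all gene positions), the maturation factor of dual oxidase 2, showed the steepest rise among called genes whose mean reached 20 CPM and whose days did not overlap, with 4.08, 7.48 and 5.66 CPM at day 7 and 142, 119.7 and 182 CPM at day 11. All 3 day 11 values lay far above the day 7 values, and the log2 fold change was 4.69 (SE 0.20, adjusted p = 4.8e-08), a 25.8-fold higher mean. Duox2 (chr2:122109728-122128930, minus strand), the hydrogen peroxide-producing oxidase itself, went from 2.62, 6.29 and 4.53 to 59.4, 39.9 and 67.1 CPM, a log2 fold change of 3.59 (SE 0.25, adjusted p = 1.6e-06). Both genes are neighbours on chromosome 2. Wfdc12, a WAP-domain protease inhibitor, rose from 4.96, 20.8 and 11.1 to 179, 212 and 171 CPM (log2 fold change 4.02). Ltf (chr9:110848339-110871835, plus strand), which encodes the iron-binding antimicrobial protein lactoferrin, counted 1129.6, 1119 and 1084 CPM at day 7 and 6826, 4033 and 9675 CPM at day 11, with a log2 fold change of 2.61 (SE 0.20, adjusted p = 3.8e-06). The 3 cultures started within a narrow range for Ltf and ended far apart, mTG14 highest and mTG12 lowest. Muc21, a membrane mucin, rose by 2.92 from 24.8, 22.8 and 26.5 to 189, 148 and 201 CPM, and Tgm2, tissue transglutaminase, by 2.62 from 23.03, 19.8 and 11.3 to 117, 96.3 and 96.3 CPM. Clca3b, Vnn1 (a pantetheinase), Tmie and Ifit1bl1 rose by 2.95, 2.79, 2.60 and 2.58. The counts given to Mir147 (log2 fold change 2.73) lie inside the gene AA467197 (2.57), which is not among the 12, so that the precursor and its host cannot be told apart. Ifi27l2a, the fourth of the 12 rises at 3.57, is described with the interferon-stimulated genes.

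Within the same limits of abundance and overlap, the largest fall belonged to Sprr1b (chr3:92344116-92346096, minus strand), a small proline-rich precursor of the cornified envelope, which had 158, 131 and 121 CPM at day 7 and 1.89, 4.72 and 1.66 CPM at day 11. Every day 11 value was below every day 7 value, the log2 fold change was -5.49 (SE 0.24, adjusted p = 5.5e-08), and the day 7 mean was 44.8-fold the day 11 mean. Calm4, a calmodulin-like protein of differentiating keratinocytes, fell from 119.7, 98.4 and 146 to 4.05, 1.80 and 2.76 CPM (log2 fold change -5.33). The late cornified envelope genes Lce3e, Lce3b, Lce3f, Lce3a and Lce3c, a cluster of similar sequences whose shared reads make the single genes uncertain, fell by 5.21, 4.70, 4.59, 4.12 and 3.58 on the log2 scale. Krt16 (chr11:100136917-100139795, minus strand), a keratin of stressed and hyperproliferative epidermis, dropped from 1045, 1072 and 1023 to 76.5, 101 and 77.1 CPM, with a log2 fold change of -3.56 (SE 0.14, adjusted p = 4.1e-08). Klk13, a kallikrein protease, went from 134, 116 and 187 to 21.9, 6.07 and 16.0 CPM. Outside the squamous genes, Calcb, which encodes a calcitonin gene-related peptide and stands among markers of thyroid C cells, went from 45.2, 60.1 and 49.4 to 3.78, 4.05 and 0.828 CPM, Nat8l, the N-acetylaspartate synthase, from 72.0, 100.3 and 101 to 6.22, 8.55 and 11.0 CPM and Acsbg1, an acyl-CoA synthetase, from 46.1, 52.5 and 47.3 to 4.86, 5.40 and 3.31 CPM. The C-cell genes Calca, Chga and Ret had at most 12 counts summed over the 3 libraries of a day. The 12 steepest rises within those limits (Duoxa2, Wfdc12, Duox2, Ifi27l2a, Clca3b, Muc21, Vnn1, Mir147, Tgm2, Ltf, Tmie and Ifit1bl1) and the 12 steepest falls kept their calls under all 14 alternative settings.

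**Figure D1:**
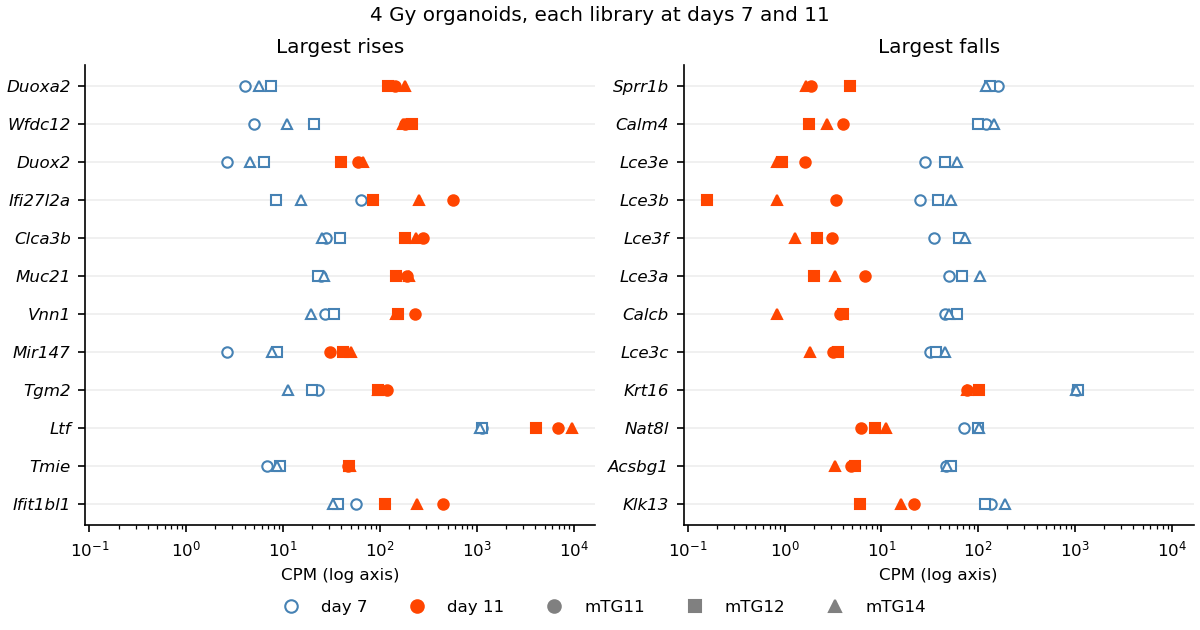
The 12 largest rises and 12 largest falls from day 7 to day 11 after 4 Gy, among called genes with a mean of 20 CPM or more and no overlap of the days. Each point is the CPM of one library on a log axis, open at day 7 and filled at day 11, with a marker shape per culture, and the days do not overlap for any gene shown; Duoxa2 goes from 4.08 to 7.48 CPM up to 119.7 to 182 CPM.

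Cornified envelope genes were mostly lower at day 11. Of 28 tested members of a list of envelope precursors, cross-linking enzymes and their partners, 18 fell, 5 rose and 5 were not called, with a median log2 fold change of -1.10 beside 0.03 over all genes. Sprr3 went from 365, 578 and 508 to 67.8, 149.8 and 77.3 CPM and Tgm3, an envelope cross-linking transglutaminase, from 80.8, 138 and 184 to 23.2, 27.2 and 52.7 CPM. Sprr2a1, the most abundant envelope precursor and one of near-identical copies, fell from 12962, 14163 and 14368 to 7850.0, 5555 and 8265 CPM, a log2 fold change of -0.88. The 5 members that rose were Crnn (1.50), Cdsn (1.23), Scel (1.06), Ppl (0.68) and Evpl (0.53, and 0.51 without mTG11, not called), which encode cornulin, corneodesmosin, sciellin, periplakin and envoplakin. Periplakin and envoplakin form the scaffold on which an envelope is first laid down. Cornulin was the exception in overlap, with 27.7, 12.8 and 27.2 CPM at day 7 and 101, 22.5 and 73.7 CPM at day 11, since culture mTG12 at day 11 lay below the other cultures at day 7. Kallikreins and other squamous proteases moved with the falling members: 10 of 11 tested fell, 0 rose and the median was -2.26. Klk10 went from 178, 172 and 218 to 25.7, 40.3 and 35.3 CPM, Klk14 from 121, 139 and 233 to 31.6, 10.3 and 30.6 CPM, the airway-type serine protease Tmprss11a from 21.0, 18.0 and 37.8 to 7.03, 3.15 and 4.97 CPM, and Spink5, the inhibitor that holds kallikreins in check, from 1578, 1442 and 1692 to 397, 299 and 347 CPM.

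Most basal and stress keratins fell, while suprabasal and simple keratins were mixed. Of 7 basal and stress keratins, 6 fell and Krt15 (log2 fold change -0.06) was not called, and the median was -1.13. Krt14 (chr11:100093988-100098490, minus strand), the basal partner of Krt5, went from 4743, 5206 and 4654 CPM at day 7 to 892, 1571 and 1436 CPM at day 11, with a log2 fold change of -1.87 (SE 0.16, adjusted p = 7.8e-06). Krt5 itself reached 2418, 2573 and 2863 CPM at day 11, a log2 fold change of -0.96, and the stress keratins Krt6b and Krt6a fell by 2.23 and 1.13 on the log2 scale. Both partners of the basal pair were lower in every culture without overlap between days. Among 7 suprabasal keratins, Krt10 and Krt13 fell (-1.28 and -0.45), Krt80 rose (1.00) and 4 were not called. The simple keratins of glandular epithelium were split: Krt7 rose from 615, 590.1 and 472 to 1373, 811 and 1229 CPM and Krt18 by 0.51, whereas Krt19 went from 1472, 956 and 929 to 932, 380.4 and 625 CPM and Krt8 from 189, 118 and 101 to 108, 59.3 and 89.2 CPM. For Krt19 and Krt8 the days overlapped across cultures although each culture fell, and neither was called without the culture block. Without mTG11, Krt13, Krt8 and Krt18 were not called (log2 fold changes -0.52, -0.52 and 0.47), and without mTG14 neither were Krt13 and Krt18 (-0.46 and 0.39).

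Genes of anchoring structures mostly fell. Of 9 genes of the hemidesmosome and laminin-332, which tie basal cells to the basement membrane, 8 fell, 0 rose and the median was -0.93. Lamb3 and Lama3, which encode laminin chains, fell by 1.36 each on the log2 scale. Itga6, the integrin alpha 6 subunit that binds laminin, went from 635, 625 and 616 to 252, 268 and 295 CPM. Desmosome genes, which bind neighbouring cells, gave 10 falls and no rise among 13 tested (median -0.73), with Dsg1b, a cadherin of differentiated layers that has near-identical copies, at 22.1, 26.3 and 33.8 CPM at day 7 and 1.08, 2.74 and 0.229 CPM at day 11. The plaque proteins plakoglobin (Jup) and plakophilin 3 (Pkp3) fell by 0.80 and 0.74 on the log2 scale. Without mTG11, 5 hemidesmosome and 4 desmosome genes were called lower, and Dsc3 (main log2 fold change -0.73) was not (-0.58).

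Tight junction genes, which seal the upper side of glandular epithelium, moved the other way. Of 14 tested, 7 rose, 2 fell and the median was 0.42. Claudin 3 (Cldn3) rose from 103, 68.7 and 75.6 to 225, 113 and 209 CPM, claudin 23 (Cldn23) from 14.6, 10.6 and 9.51 to 65.1, 25.2 and 46.6 CPM and the scaffold Tjp3 from 44.0, 36.3 and 40.1 to 99.4, 54.2 and 93.3 CPM, without overlap in any of them. Occludin (Ocln), the founding strand protein, had 14.9, 16.0 and 17.2 CPM at day 7 and 32.2, 19.6 and 29.3 CPM at day 11 and a log2 fold change of 0.79 (SE 0.18, adjusted p = 0.0082). In all 4 genes mTG12 was the lowest culture at day 11. The 2 that fell were Cldn8 (-1.02) and Cldn1 (-0.56), both with overlapping days. Without mTG11, 3 were called higher and 0 lower, and Ocln and Cgn (cingulin) had log2 fold changes of 0.59 and 0.71 that did not pass. Cldn8 and Cldn1 then had -1.01 and -0.36, without mTG12 -0.91 and -0.52, also not called, and neither was called by DESeq2 or without the block.

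**Figure D2:**
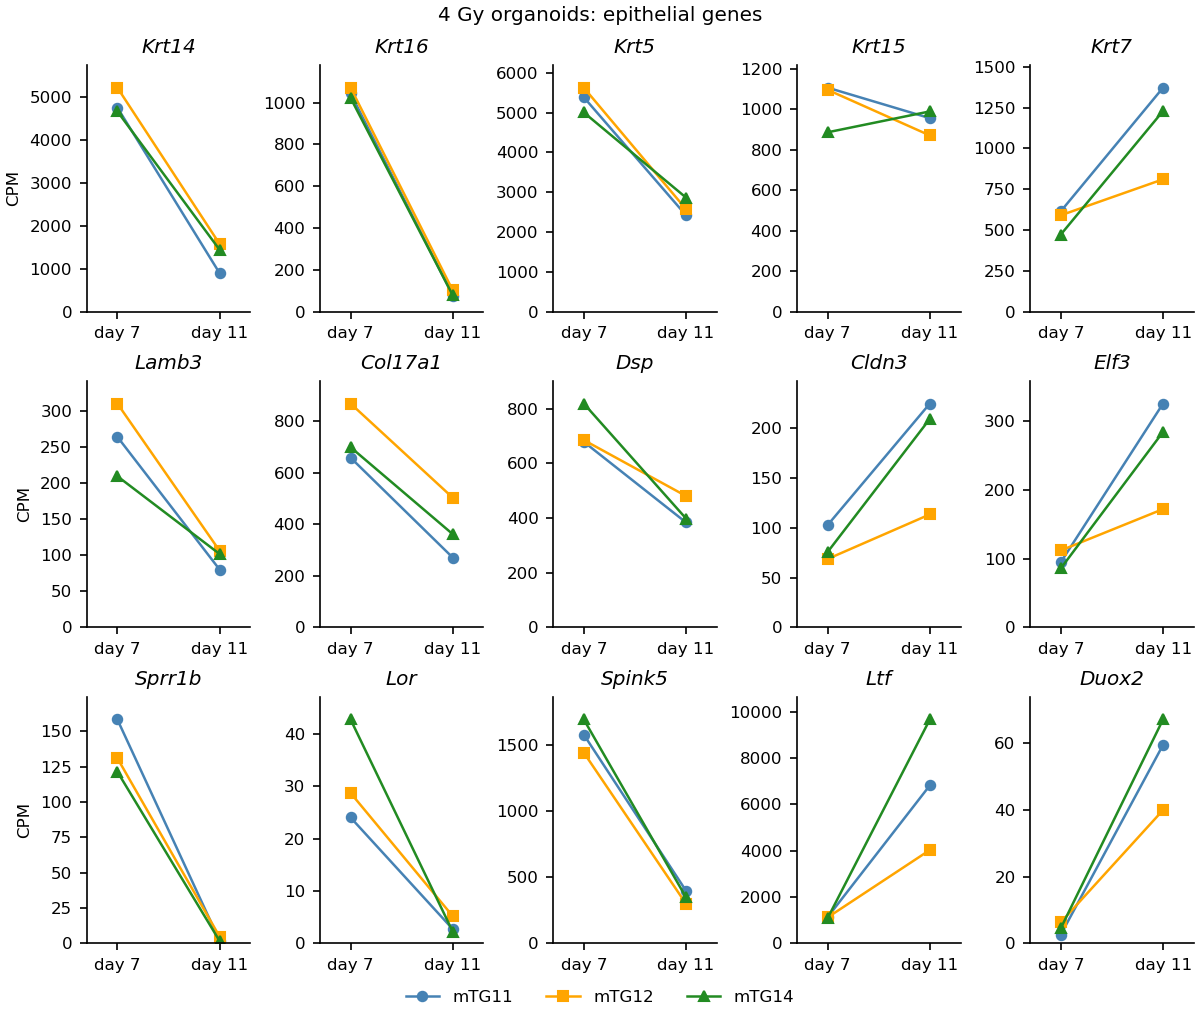
Epithelial genes after 4 Gy, CPM on a linear axis from 0 at day 7 and day 11, with a line joining the days within each culture. Krt14, Krt16, Krt5, the anchoring genes Lamb3, Col17a1 and Dsp and the squamous genes Sprr1b, Lor and Spink5 slope down in every culture (Krt14 from 4654 to 5206 CPM down to 892 to 1571 CPM), Krt7, Cldn3, Elf3, Ltf and Duox2 slope up, and Krt15 rises in 1 of 3 cultures.

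Transcription factors of epithelial fate moved in both directions. Of 20 tested, 5 rose (all genes higher 10.1%) and 3 fell (all genes lower 9.77%), with a median of 0.20. Elf3, an ETS factor of secretory and maturing epithelium, rose from 95.0, 112 and 86.0 to 326, 172 and 285 CPM, a log2 fold change of 1.44 (SE 0.19, adjusted p = 1.8e-04). Zfp750 and Grhl1, which promote late differentiation of keratinocytes, rose by 0.91 and 0.90, and Ovol1 by 0.82 (0.84 without mTG11 and 0.69 without mTG14, neither called). Pax9, a foregut factor, rose by 0.72 with all cultures but by an uncalled 0.57 without mTG11. The basal factor Trp63 stood at 90.4, 98.6 and 102 CPM at day 7 and 74.9, 68.6 and 90.8 CPM at day 11 and was not called (log2 fold change -0.25). Barx2 (-0.52) and Sox9 (-0.36) fell, and without mTG11 they had -0.50 and -0.38, neither called. Sox9 was not called without mTG12 (-0.35) or mTG14 (-0.37) either. In the Notch pathway, 3 of 10 tested genes fell (all genes lower 9.77%) and 0 rose (all genes higher 10.1%). These were the ligand Jag1, from 219, 328 and 227 to 81.9, 110.2 and 103 CPM, the target Hes1, from 135, 138 and 135 to 76.5, 88.6 and 83.1 CPM, and the feedback inhibitor Nrarp (-0.45, and -0.38 without mTG11, not called).

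Genes of thyroid function gave 3 rises and 2 falls among 10 tested of 17 (all genes higher 10.1%, lower 9.77%). Besides Duox2 and Duoxa2, Nkx2-1 rose from 9.04, 9.58 and 6.34 to 17.8, 11.9 and 13.2 CPM, a log2 fold change of 0.84 (SE 0.21, adjusted p = 0.014), while without mTG11 its change of 0.72 was not called. Foxe1 stood at 26.2, 30.3 and 29.9 CPM at day 7 and 24.1, 31.3 and 35.1 CPM at day 11 and was not called. The other oxidase pair moved opposite to Duox2 and Duoxa2: Duox1 fell from 25.4, 21.9 and 21.7 to 8.24, 11.4 and 10.2 CPM (log2 fold change -1.13) and Duoxa1 by 0.54 on the log2 scale, though not called without mTG11 (-0.37) or mTG14 (-0.51). Duox1 lay below its day 7 range in every culture, as Duox2 lay above.

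Mucosal defence genes, secreted or displayed by airway-type and salivary-type epithelium, rose in 12 of 19 tested and fell in 4, with a median of 0.80. Muc4, a membrane mucin, went from 25.7, 19.8 and 24.2 to 131, 82.8 and 102 CPM, and Lcn2, the siderophore-binding protein lipocalin 2, from 31.8, 48.3 and 158 to 197, 178 and 594 CPM, highest in mTG14 on both days. The fall of Scgb3a1, a secretoglobin, from 189, 333 and 62.7 to 33.8, 47.0 and 12.7 CPM had a log2 fold change of -2.50 (SE 0.14, adjusted p = 3.9e-07). The other falls were Bpifa1 (-2.10), an airway lipid-binding protein, Agr2 (-0.80, and -0.86 without mTG11, not called), a protein disulfide isomerase of mucous cells, and Scgb1a1, a second secretoglobin, which stood at 5.25, 6.79 and 3.40 CPM at day 7 and 0.270, 0.225 and 0 CPM at day 11, at most 1 count per library at day 11. The number of rises was 6 without the block, 7 with DESeq2 and 4 without mTG11. Among all genes, these settings called 1451 and 836 of 17770 and 547 of 16846 higher.

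Multiciliated cell genes stayed low. Of 21 genes, 16 had enough counts to be tested, 5 rose, 0 fell and the median was 1.46. The master regulator Foxj1 stood at 0.875, 4.39 and 0.906 CPM at day 7 and 10.00, 6.07 and 4.14 CPM at day 11. Its highest day 7 value, in mTG12, lay between the day 11 values, and the log2 fold change was 1.70 (SE 0.45, adjusted p = 0.018), not called without mTG11 (1.07) or without the block. The other 4 called genes, Tppp3, Cfap43, Cfap53 and Sntn, were at or under 13.0 CPM in every library, and Sntn had 0 counts in all 3 libraries of day 7. In unirradiated mTGOs 20 of 21 tested members rose (all genes higher 12.4%) with a median of 3.66, and Foxj1 reached 26.4, 24.9 and 12.1 CPM at day 11. Members with too few counts at 4 Gy passed the count filter in fits that held the 0 Gy libraries of day 11. Medians and counts from those fits therefore cover more members than the 16, and the medians cannot be compared directly. The interaction with 0 Gy was called for 0 members (all genes 0.585%), and at day 11 the 4 Gy libraries were lower than the 0 Gy libraries for 6 of 21 tested (all genes lower 0.188%). Foxj1 was one of them (log2 fold change -1.66). Without the culture block, 0 genes of all were called between these doses at day 11. Of the rises at 4 Gy, 3 were called without the block, 2 by DESeq2 and 1 without mTG11.

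Cell division genes fell after 4 Gy. Mki67 (chr7:135291513-135318299, minus strand), which marks cycling cells, had 83.0, 75.01 and 94.2 CPM at day 7 and 51.2, 42.6 and 37.0 CPM at day 11, every day 11 value below every day 7 value. The log2 fold change was -0.88 (SE 0.15, adjusted p = 0.0017). Of 30 genes of mitosis and G2/M, 24 fell, 1 rose and 5 were not called, with a median of -1.01. Aurka, the centrosomal kinase, went from 29.2, 27.1 and 21.1 to 7.84, 5.40 and 7.73 CPM, a log2 fold change of -1.82 (SE 0.20, adjusted p = 5.0e-05). Plk1, the polo-like kinase, went from 34.1, 24.5 and 20.9 to 7.43, 6.52 and 9.66 CPM, and Birc5, survivin, from 69.4, 62.0 and 53.9 to 18.6, 18.6 and 23.7 CPM. Kif20a, a kinesin of cytokinesis, fell by 1.45 on the log2 scale. Pttg1, the securin gene, was the single rise (0.61), with overlapping days, and was not called without mTG11 (0.57), without mTG14 (0.48) or by DESeq2. DNA replication and G1/S genes gave 18 falls and no rise among 28 tested (median -0.77, no member above 0). Rrm2, the ribonucleotide reductase subunit made in S phase, went from 57.1, 48.7 and 34.8 to 6.62, 11.5 and 11.9 CPM, and Mcm5, of the replicative helicase, from 45.2, 45.8 and 34.2 to 12.7, 14.2 and 18.8 CPM. Uhrf1, which maintains DNA methylation at replication forks, and Fen1, the flap nuclease, fell by 1.39 and 1.29 on the log2 scale. Without mTG11, 20 mitosis genes and 8 replication genes were called lower (all genes lower 562 of 16846).

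Promoters of the mitosis genes are shown because these genes fell together. RefSeq promoters (GRCm38.p6), 250 bases before to 50 after the start, were matched by symbol for 25 of the 30 genes. A pair of textbook elements of cell cycle promoters were searched on both strands, the cell cycle homology region (TTTGAA, or TTCAAA on the other strand) and the CCAAT box (CCAAT, or ATTGG). The first was in 18 of 25 windows (72%; 20.2% of all 27025 promoters) and the second in 20 (80%; 41.1%). In the 150 bases before the start, both stood together in 7 of 25 (28%; 2.63% of all). The 4 promoters printed below are among those 7. Birc5 (log2 fold change -1.53) also fell but had neither element in its window, and Ccnb1 (-1.41) lacked the first. The following stretches of 150 bases end at the base before the start, on the gene's strand, with matches in capitals.
Ube2c (chr2:164769779-164769928, plus strand): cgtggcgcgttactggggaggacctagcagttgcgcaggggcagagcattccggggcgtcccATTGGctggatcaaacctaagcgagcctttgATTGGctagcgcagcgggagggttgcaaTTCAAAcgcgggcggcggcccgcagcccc
Cdk1 (chr10:69352913-69353062, minus strand): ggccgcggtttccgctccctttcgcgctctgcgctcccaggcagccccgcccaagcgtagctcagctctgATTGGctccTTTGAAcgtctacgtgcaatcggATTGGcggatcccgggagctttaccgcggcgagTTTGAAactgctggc
Cdc20 (chr4:118437344-118437493, minus strand): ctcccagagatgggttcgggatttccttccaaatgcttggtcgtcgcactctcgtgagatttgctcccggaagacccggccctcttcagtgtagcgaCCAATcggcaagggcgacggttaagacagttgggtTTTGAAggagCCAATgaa
Mki67 (chr7:135716380-135716529, minus strand): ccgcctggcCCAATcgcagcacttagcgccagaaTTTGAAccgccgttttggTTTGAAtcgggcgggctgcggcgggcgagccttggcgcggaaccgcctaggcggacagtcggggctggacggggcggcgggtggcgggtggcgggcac
All 4 genes fell, with log2 fold changes of -1.38 for Ube2c, a ubiquitin-conjugating enzyme of mitotic exit, -1.31 for the mitotic kinase Cdk1, -1.20 for the checkpoint target Cdc20 and -0.88 for Mki67. In 23 of 28 replication genes with a promoter, 12 windows (52.2%; 7.79% of all) held an E2F element, TTCCCGC or TTGGCGC on either strand. A match is a string of letters and does not show that a factor was bound.

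The fall of the division genes was smaller than in unirradiated mTGOs for some of them, and at 7 Gy most were not called lower. Mki67 at 0 Gy went from 130.1, 114 and 117 to 24.2, 23.7 and 26.5 CPM, at 2 Gy from 111, 135 and 79.3 to 22.1, 47.2 and 21.97 CPM and at 7 Gy from 39.1, 45.2 and 47.2 to 83.9, 77.1 and 65.8 CPM. It fell at 0, 2 and 4 Gy without overlap and rose at 7 Gy. The interaction with 0 Gy, the log2 fold change over time at 4 Gy minus that at 0 Gy, was 1.39 (SE 0.19, adjusted p = 0.0035), and with 7 Gy it was -1.68 (SE 0.20, adjusted p = 0.0014). Over the mitosis list, 29 of 30 genes fell at 0 Gy (median -1.95; all genes lower 13.3%) and at 2 Gy (median -1.88; 10.7%), whereas 1 fell (10.6%) and 5 rose (11.3%) at 7 Gy (median 0.02). The interaction with 0 Gy was positive and called for 6 of the 30 genes (all genes 0.387%) and negative for none, and with 7 Gy it was negative for 16 (all genes 0.374%) and positive for none (all genes 0.0498%). Aurka, Ube2c, Cdk1 and Top2a were among the latter, with interactions of -1.73, -1.14, -1.51 and -1.02. Of 28 replication genes, 26 fell at 0 Gy (all genes lower 13.3%) and 25 at 2 Gy (10.7%). At 7 Gy 2 fell (10.6%) and 2 rose (all genes higher 11.3%), with a median of -0.07. A negative interaction with 7 Gy was called for 6 of the 28 (all genes 0.374%), for Mcm5 with -1.33 (SE 0.20, adjusted p = 0.0079). Without mTG11, on 8 libraries, 1 gene of all was called in the interaction with 0 Gy and 0 with 7 Gy. Mki67 then had interactions of 1.18 and -1.64, neither called, and the values of Aurka, Ube2c, Cdk1, Top2a and Mcm5 with 7 Gy were -1.68, -1.12, -1.34, -0.96 and -1.22.

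**Figure D3:**
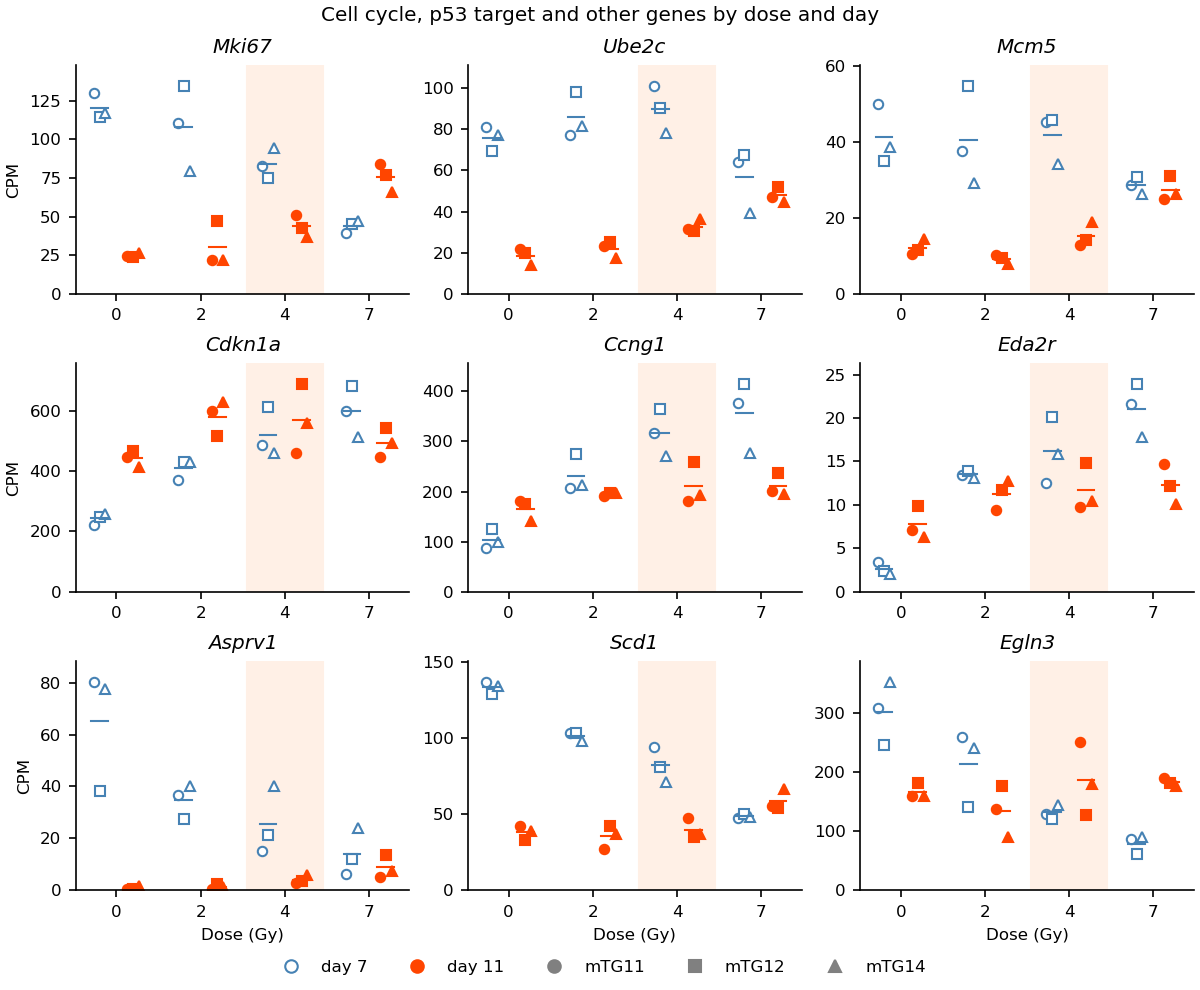
CPM of 9 genes in each library at 0, 2, 4 and 7 Gy, day 7 beside day 11, with bars at the means and the 4 Gy libraries shaded. Mki67, Ube2c and Mcm5 fall from day 7 to day 11 at 0, 2 and 4 Gy, while at 7 Gy Mki67 is higher at day 11 and the days of Ube2c and Mcm5 overlap; Cdkn1a, Ccng1 and Eda2r rise at 0 Gy and start higher at 4 Gy.

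Some DNA damage signalling and repair genes fell. Of 27 tested, 8 fell (all genes lower 9.77%), 0 rose (all genes higher 10.1%) and the median was -0.30. Trp53, which encodes p53, went from 78.6, 75.04 and 61.6 to 42.6, 45.4 and 48.6 CPM. The replication checkpoint mediator Clspn and the end-joining subunit Xrcc5 fell by 0.76 and 0.58 on the log2 scale. H2ax, Blm and Exo1 fell as well. None of the 8 was called without mTG11 (-0.48 for Trp53, -0.85 for Clspn and -0.58 for Xrcc5), 5 were without mTG12, Xrcc5 (-0.42) not among them, and DESeq2 called 1. Without mTG14, 3 members were called higher, a share near that of all genes in that fit (1624 of 16694 higher).

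Targets of p53 were divided. Cdkn1a (chr17:29309936-29319701, plus strand) stood at 486, 613 and 460.5 CPM at day 7 and 459, 688 and 561 CPM at day 11. Both ranges overlapped, mTG12 was highest on both days, and the log2 fold change was 0.19 (SE 0.12, adjusted p = 0.29). Mdm2, the ubiquitin ligase that degrades p53, stood at 68.0, 103 and 72.0 CPM at day 7 and 64.1, 103 and 77.4 CPM at day 11 (log2 fold change 0.08, not called). Of 20 targets, 4 rose, 5 fell and 11 were not called, with a median of -0.11. Pmaip1 (Noxa), a BH3-only death gene, rose from 95.9, 116 and 91.7 to 136, 168 and 160.1 CPM, whereas Bbc3 (Puma), of the same class, went from 18.7, 16.6 and 9.96 to 4.86, 10.6 and 6.90 CPM with overlap between cultures and a log2 fold change of -0.91. Psrc1 and the kinase gene Plk2 rose by 0.64 and 0.60, and Gdf15, a secreted stress cytokine, stood at 2.92, 6.79 and 1.58 CPM at day 7 and 11.6, 6.75 and 14.6 CPM at day 11, a rise of 1.54 carried by mTG11 and mTG14. Ccng1, cyclin G1, fell from 317, 364 and 271 to 182, 258 and 194 CPM, and Tnfrsf10b, a death receptor, Bax, a pore-forming death protein, and Perp, a desmosomal p53 target, by 0.64, 0.57 and 0.41 on the log2 scale. Without mTG11, 1 target was called higher and 0 lower. Bbc3, Psrc1, Tnfrsf10b and Ccng1 then had log2 fold changes of -0.53, 0.61, -0.49 and -0.43, and Plk2, Gdf15, Bax and Perp 0.60, 1.34, -0.45 and -0.29. Perp was not called without mTG14 either (-0.42). Falls numbered 2 without the block and 3 with DESeq2.

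The course of these targets differed from that in unirradiated mTGOs. At 0 Gy, 14 of 20 rose (all genes higher 12.4%) and 1 fell (all genes lower 13.3%; median 0.83). At 7 Gy 3 rose, a share near that of all genes (11.3%), and 10 fell (10.6%; median -0.28). Cdkn1a went from 223, 247 and 259 to 446, 468 and 412 CPM at 0 Gy, from 370.1, 430.2 and 429 to 598, 515 and 627 CPM at 2 Gy and from 598, 681 and 513 to 447, 541 and 492 CPM at 7 Gy. The interaction with 0 Gy was -0.68 (SE 0.14, adjusted p = 0.045) for Cdkn1a (-0.52 and not called without mTG11), and 7 of 20 targets had a negative called interaction against 0.198% of all genes. For Eda2r, a TNF-family receptor, it was -1.97 (SE 0.32, adjusted p = 0.0083), and for Ccng1 -1.20 (SE 0.15, adjusted p = 0.0033). Beside these changes over time, the 4 Gy libraries were above the 0 Gy libraries of day 7 for 16 of 20 targets (all genes higher 2.92%; Cdkn1a 1.02) and for 0 at day 11 (all genes higher 0.648%; Cdkn1a 0.33, adjusted p = 0.22 with edgeR). The comparisons share libraries, and their values are set side by side only. At day 11 the count over all genes was 147 of 17597 (0.835%), and 0 without the culture block, where 1244 genes had an unadjusted p under 0.05. Among 10 CDK inhibitors and D cyclins, Cdkn1b and Cdkn1c rose by 0.44 and 1.07 (0.42 and 1.09 without mTG11, 0.43 and 0.86 without mTG14, none called), the senescence-linked Cdkn2a stood at 34.4, 68.7 and 34.9 CPM at day 7 and 43.8, 78.7 and 43.9 CPM at day 11 and was not called, and without mTG11 or by DESeq2 none of the 10 was called.

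Interferon-stimulated genes were the largest list to rise without a fall. Of 32 tested, 24 rose, 0 fell and all 32 log2 fold changes were positive, with a median of 1.28. Ifi27l2a (chr12:103399975-103409950, minus strand), a mitochondrial membrane protein induced by interferon, went from 63.0, 8.38 and 15.2 to 568, 85.3 and 253 CPM, a log2 fold change of 3.57 (SE 0.17, adjusted p = 7.0e-08). Culture mTG11 was highest and mTG12 lowest on both days. Ifi44 had 51.3, 17.6 and 13.4 CPM at day 7 and 193, 70.0 and 126 CPM at day 11 (log2 fold change 2.40), Oasl1, an oligoadenylate synthase-like protein, 18.4, 16.8 and 15.2 CPM at day 7 and 113, 46.8 and 93.3 CPM at day 11 (2.31), and Ifit3b rose by 2.23. Isg15, the ubiquitin-like modifier, stood at 106, 44.3 and 40.5 CPM at day 7 and 221, 87.3 and 165 CPM at day 11. Its days overlapped because mTG11 at day 7 lay above mTG12 at day 11, while each culture rose, and the log2 fold change was 1.42 (SE 0.17, adjusted p = 9.3e-05). Among the transcription factors of the pathway, Stat2, Irf9 and Irf7 rose by 0.52, 0.71 and 2.05. Stat2 was not called without mTG11 (0.54) or mTG14 (0.41). Without mTG11, in which the summed level of the list was highest on both days, 20 members were called higher.

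Promoters of 4 interferon-stimulated genes are printed to show the interferon-stimulated response element they share, searched as GAAANNGAAA or its reverse complement TTTCNNTTTC, where N is any base and neighbouring matches may overlap. It was present in 14 of 23 RefSeq promoters of the list (60.9%) and in 3.99% of all 27025. In the 150 bases before the start it was in 10 of 23 (43.5%; 1.85% of all), and those bases are shown with matches in capitals.
Ifit1 (chr19:34640739-34640888, plus strand): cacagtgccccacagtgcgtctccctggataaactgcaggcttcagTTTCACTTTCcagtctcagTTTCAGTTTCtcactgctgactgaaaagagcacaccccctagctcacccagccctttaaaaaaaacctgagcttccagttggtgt
Ifit3 (chr19:34583379-34583528, plus strand): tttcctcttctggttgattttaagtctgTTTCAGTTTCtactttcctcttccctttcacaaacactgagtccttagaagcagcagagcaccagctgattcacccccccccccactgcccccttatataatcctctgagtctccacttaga
Bst2 (chr8:71537473-71537622, minus strand): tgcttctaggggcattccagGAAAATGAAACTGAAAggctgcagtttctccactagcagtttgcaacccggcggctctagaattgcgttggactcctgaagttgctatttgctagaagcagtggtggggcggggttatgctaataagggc
Isg15 (chr4:156200819-156200968, minus strand): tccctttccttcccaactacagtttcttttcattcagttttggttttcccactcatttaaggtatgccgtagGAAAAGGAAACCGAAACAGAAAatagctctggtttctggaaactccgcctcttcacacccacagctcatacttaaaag
Ifit1 and Ifit3, RNA-binding antiviral proteins, rose by 1.80 and 2.00, Bst2, tetherin, by 1.55 and Isg15 by 1.42.

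Class I antigen presentation rose beside them. Of 16 tested genes, 12 rose, 0 fell, all 16 log2 fold changes were positive and the median was 1.31. B2m (chr2:121977957-121983594, plus strand), the light chain of every class I molecule, went from 252, 156 and 162 to 1172, 392 and 632 CPM, a log2 fold change of 1.91 (SE 0.16, adjusted p = 6.0e-06). H2-K1 (chr17:34214987-34219321, minus strand), a classical heavy chain, went from 254, 221 and 192 to 896, 319 and 611 CPM. The immunoproteasome subunit Psmb8 rose from 16.9, 6.69 and 7.13 to 58.9, 17.5 and 44.4 CPM, and Psmb9 by 1.80 (1.55 and not called without mTG11). In B2m, H2-K1 and Psmb8 mTG11 was highest and mTG12 lowest at day 11. Heavy-chain genes share reads with near-identical neighbours, so the rise of 4.34 given to H2-Q7 is uncertain. For comparison with unirradiated mTGOs, 27 of 32 interferon-stimulated genes were higher in 4 Gy than in 0 Gy libraries at day 7 (all genes higher 2.92%) and 21 of 32 at day 11 (0.648%). Of the class I genes, 2 of 15 were higher at day 7 and 6 of 16 at day 11. Without the culture block, 371 genes of all were called between these doses at day 7 and 0 at day 11. The rise over time itself also occurred at 0 Gy, where 24 of the 32 interferon-stimulated and 9 of 15 class I genes rose (all genes higher 12.4%). Interactions were called for 1 interferon-stimulated gene and for no class I gene with 0 or 7 Gy. That gene was Ifi27l2a with 0 Gy, at 1.43 (SE 0.30, adjusted p = 0.04), and at 1.93 without mTG11, not called.

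**Figure D4:**
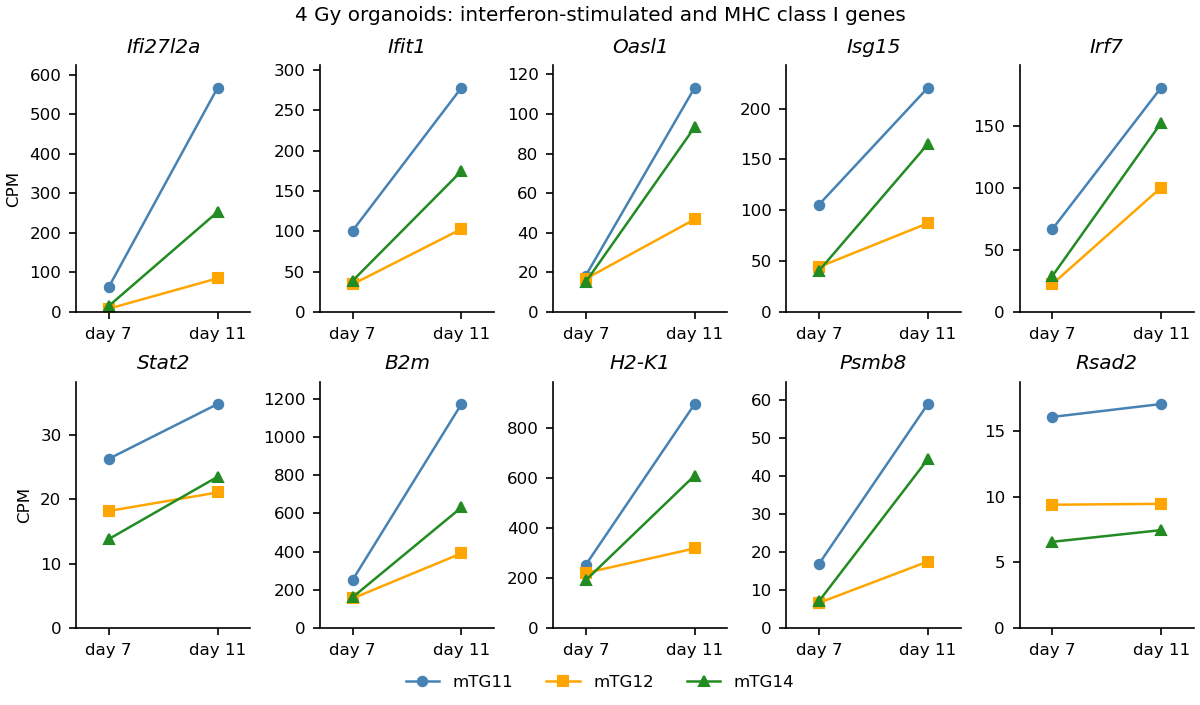
Interferon-stimulated and class I genes after 4 Gy, CPM on a linear axis from 0 at day 7 and day 11, with a line joining the days within each culture. Every line of Ifi27l2a, Ifit1, Oasl1, Irf7, B2m, H2-K1 and Psmb8 rises, mTG11 being highest at day 11.

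Leukocyte markers moved in the same direction. Their summed level went from between 19.2 and 21.3 CPM at day 7 to between 49.7 and 86.9 CPM at day 11, made up of Cd68 and Itgam. Cd68, a lysosomal glycoprotein, rose from 17.8, 16.0 and 17.2 to 55.9, 36.2 and 58.8 CPM and Itgam, an integrin of myeloid cells, from 3.50, 3.19 and 2.04 to 30.4, 13.3 and 19.6 CPM. The defining genes Ptprc, Adgre1, Csf1r and Cd3e had between 0 and 4 counts summed over the 3 libraries of a day, and the part of such cells in the interferon values was not tested. Secreted signals were mixed: of 22 chemokines and cytokines tested, 4 rose (all genes higher 10.1%), 6 fell (all genes lower 9.77%) and the median was -0.10. Il1a, an alarmin, rose from 18.9, 24.9 and 22.6 to 55.4, 53.3 and 74.5 CPM, whereas the monocyte attractant Ccl2 fell from 25.1, 32.5 and 34.4 to 3.51, 12.8 and 7.04 CPM and the neutrophil attractant Cxcl3 from 22.3, 37.3 and 26.4 to 8.11, 12.6 and 10.8 CPM. Cxcl17, a mucosal chemokine, rose by 1.19, and by an uncalled 0.92 without mTG11, and the colony-stimulating factors Csf1 and Csf3 rose by 0.93 and 1.26 (Csf3 0.95 and not called without mTG11). Without that culture 2 were called higher and 3 lower.

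Sterol and fatty acid synthesis genes fell almost throughout. Of 26 tested, 24 fell, 0 rose and the median was -0.93. Fdps, farnesyl diphosphate synthase, went from 141, 146 and 127 to 61.7, 44.1 and 54.4 CPM, a log2 fold change of -1.31 (SE 0.13, adjusted p = 3.1e-05). The mevalonate kinase gene Mvk and the isomerase gene Idi1 fell by 1.42 and 1.30 on the log2 scale. No value of day 11 reached the day 7 range in these 3 genes. At 0 Gy all 26 fell with a median of -1.55, and the interaction with 0 Gy was positive for 7 of 26 (all genes 0.387%), among them Fdps with 1.34 (SE 0.16, adjusted p = 0.0032). With 7 Gy it was negative for 3 of 26 (all genes 0.374%), among them the desaturase Scd1 with -1.24 (SE 0.18, adjusted p = 0.0049). Without mTG11 these 2 values were 1.27 and -1.29, neither called.

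Glycolysis and hypoxia genes were split. Of 23 tested, 9 fell, 8 of them glycolytic enzymes beside the glucose transporter gene Slc2a1, and 6 rose (median -0.24). Pkm, pyruvate kinase, went from 1464, 1478 and 1257 to 653, 495 and 645 CPM and Pgam1, phosphoglycerate mutase, from 280.4, 304 and 250.3 to 114, 124 and 125 CPM. Adm, adrenomedullin, rose from 8.45, 8.98 and 7.70 to 38.6, 29.7 and 27.6 CPM and Vegfa, the endothelial growth factor, from 43.7, 55.3 and 63.8 to 138, 115 and 127 CPM. Egln3, a prolyl hydroxylase induced by low oxygen, rose by 0.52 at 4 Gy (0.25 and not called without mTG11) while it fell by 0.85 at 0 Gy, an interaction of 1.37 (SE 0.23, adjusted p = 0.011). In all, 5 of the 23 had a positive called interaction with 0 Gy (all genes 0.387%). Of rises at 4 Gy, DESeq2 called 3, and 2 were called without mTG11.

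Amino acid stress, glutathione and immediate early lists rose. In the ATF4 and amino acid list, 10 of 18 rose and 1 fell (median 0.56): Chac1, which degrades glutathione, went from 7.00, 11.6 and 10.8 to 29.7, 28.8 and 48.9 CPM, Ddit3 (CHOP) from 5.83, 10.6 and 7.02 to 24.9, 22.05 and 25.4 CPM, and Nupr1, a stress-inducible chromatin protein, from 301, 369.6 and 313 to 972, 516 and 973 CPM. The single fall was Ddit4 (-0.90), an mTOR inhibitor. Glutathione and NRF2 genes gave 10 rises and no fall among 18 (median 0.56). Gsta3, a glutathione transferase with close paralogs, went from 66.8, 58.9 and 41.0 to 253, 289 and 232 CPM, and Gsto1, among the 5 most abundant RNAs here, from 8511, 9786 and 8450.2 to 19908, 15261 and 20715 CPM. Aldh3a1 rose by 0.90, and by 1.07 without mTG11, where it was not called. Immediate early genes gave 12 rises and no fall among 19 (median 0.66). Fosb went from 8.45, 12.4 and 6.79 to 36.2, 37.8 and 21.0 CPM, Atf3 from 15.5, 14.4 and 11.3 to 36.8, 40.3 and 32.6 CPM, and Dusp1 and Fosl2 rose by 1.25 and 1.14. Fos stood at 61.8, 74.8 and 54.6 CPM at day 7 and 120.2, 116 and 67.1 CPM at day 11, with overlapping days and a log2 fold change of 0.71 (0.54 and not called without mTG11). Without mTG11 these lists gave 6, 5 and 5 rises (all genes higher 547 of 16846).

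Mesenchymal and TGF-beta genes gave 4 rises and 5 falls among 21 tested (all genes higher 10.1%, lower 9.77%), with a median of -0.25. Tgfbi, a matrix protein induced by TGF-beta, fell from 137, 245 and 171 to 30.3, 55.3 and 61.4 CPM, Cd44, the hyaluronan receptor, from 564, 627 and 456 to 164, 221 and 187 CPM, and vimentin (Vim) stood at 18.9, 48.1 and 43.9 CPM at day 7 and 5.40, 24.7 and 18.2 CPM at day 11, lowest in mTG11 on both days. The ligand gene Tgfb2 rose from 7.10, 12.8 and 11.3 to 32.8, 21.5 and 27.1 CPM. The count of rises was 2 with DESeq2 and 1 without mTG11, and falls 3 without the block, where Vim was not called. Summed fibroblast markers lay between 37.9 and 162 CPM at day 7 and between 17.6 and 132 CPM at day 11, lowest in mTG11 on both days, and their part in the values of Vim was not tested. Of 10 fibroblast markers Postn rose (2.19) and Col1a1 and Col1a2 fell (-1.09 and -0.78), none of them called without the block. The contractile gene Acta2 rose from 5.25, 11.8 and 15.2 to 11.3, 31.0 and 113 CPM with overlap, and was not called without the block. Col1a2 also lost its call without mTG11 or mTG14 (-0.76 and -0.55). Skeletal muscle genes summed to between 32.9 and 114 CPM at day 7 and 18.5 and 35.1 CPM at day 11, with Des falling from 11.7, 44.9 and 32.1 to 6.22, 8.32 and 6.07 CPM and Myh1 from 8.09, 23.9 and 21.5 to 2.57, 3.82 and 3.59 CPM. Endothelial, parathyroid and Schwann cell markers each summed to at most 8.60 CPM in a library, and of the adipocyte genes only Fabp4 had counts, at 7.29, 7.38 and 7.70 CPM at day 7 and 0.270, 0.450 and 0.552 CPM at day 11. Rgs5, a pericyte gene, fell from 5.25, 1.40 and 3.40 to 2.43, 0.0157 and 0.276 CPM with overlap, and was not called without mTG11 or mTG14.

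Apoptosis genes moved little: of 12, 1 rose (all genes higher 10.1%) and 2 fell (all genes lower 9.77%). Birc3, an inhibitor of apoptosis, rose by 0.73 with overlapping days, and Casp8 and Bak1, of the initiating and mitochondrial steps of apoptosis, fell by 0.55 and 0.45 on the log2 scale. Birc3 and Bak1 were not called without mTG11 (0.54 and -0.47), Birc3 not without mTG14 (0.56), and Casp8 and Bak1 not without mTG12 (-0.40 and -0.31). Of 13 mitochondrially encoded mRNAs, COX1 rose (0.50) and ND1 and ND3 fell (-0.47 and -0.54), and none was called without mTG11 (0.40, -0.52 and -0.42), nor ND1 without mTG14 (-0.38). The remaining RNAs among the 5 most abundant, the ribosomal Rn18s-rs5 and mt-Rnr2, were not called (0.35 and 0.50), while mt-Rnr1 was (0.60), in 7 of 14 alternatives, but not without mTG11 (0.36).

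The course from day 7 to day 11 was shared in large part with the other doses. At 0 Gy 4509 of 17523 genes changed (25.7%), at 2 Gy 3726 of 17354 (21.5%) and at 7 Gy 3976 of 18173 (21.9%). Of the 3534 genes called at 4 Gy, 2305 (65.2%) were called in the same direction at 0 Gy, which was 51.1% of the 0 Gy calls, 2362 (66.8%; 63.4%) at 2 Gy and 2254 (63.8%; 56.7%) at 7 Gy. The steepest changes were part of this shared course: Duoxa2 rose by 5.14, 5.00 and 4.07 at 0, 2 and 7 Gy, and Sprr1b had log2 fold changes of -6.21, -6.64 and -3.21. The difference between courses was tested directly. With 0 Gy 115 of 19657 genes (0.585%) had a called interaction, 76 positive and 39 negative, with 7 Gy 85 of 20073 (0.423%), 10 positive and 75 negative, and with 2 Gy none (0%; edgeR, 1159 genes at an unadjusted p under 0.05, DESeq2 1).

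**Figure D5:**
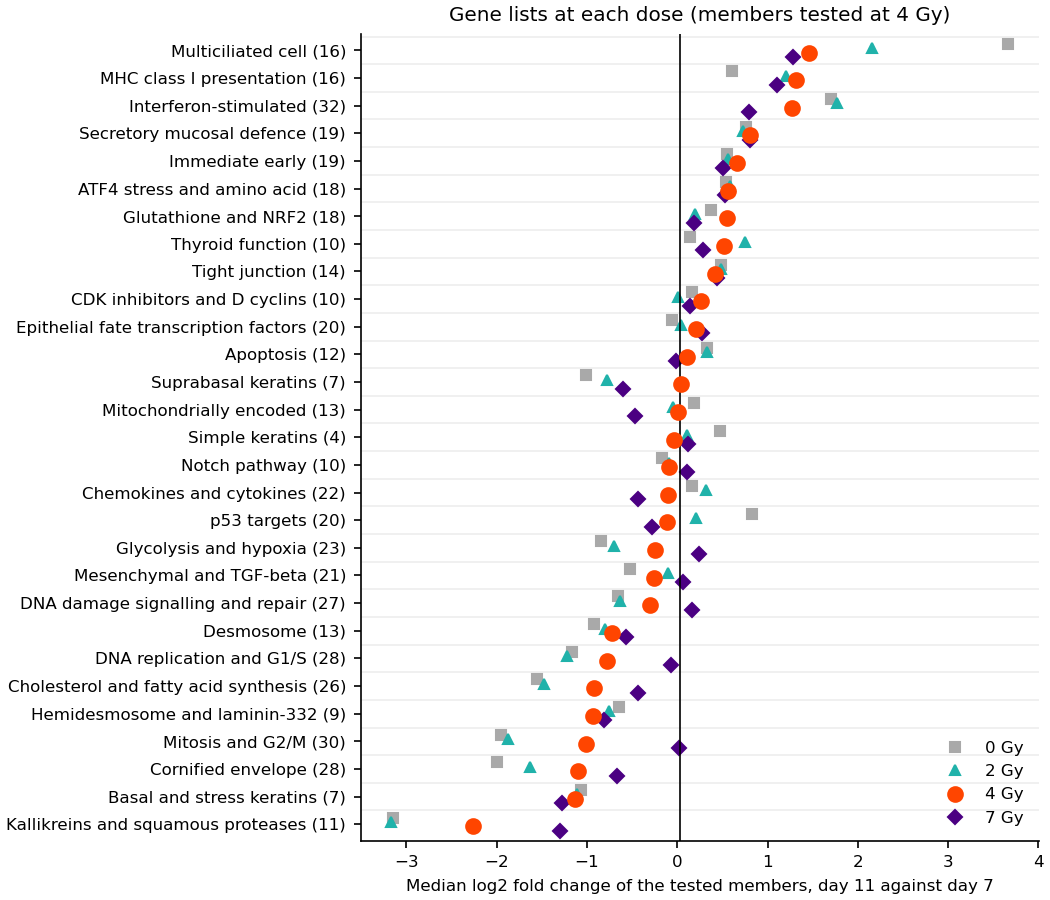
Median log2 fold change from day 7 to day 11 of each gene list at 0, 2, 4 and 7 Gy, with the number of members tested at 4 Gy in parentheses and a black line at the all-gene median of 0.03. Mitosis, replication and sterol synthesis medians lie below 0 at 0, 2 and 4 Gy and nearest 0 at 7 Gy, multiciliated genes are highest at 0 Gy, and tight junction and immediate early medians lie close together at all doses. Medians cover the members tested at each dose, for multiciliated genes 21 at 0 Gy and 16 at 4 Gy.

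Interactions are named here for called genes with a mean of 20 CPM or more over the 12 libraries, and some less abundant genes had larger values. Within this limit Asprv1, a skin protease that processes filaggrin, had the most positive interaction with 0 Gy. At 4 Gy it stood at 15.2, 21.4 and 40.1 CPM at day 7 and 2.70, 3.60 and 5.80 CPM at day 11, and at 0 Gy at 80.2, 38.2 and 77.5 CPM at day 7 and 0.238, 0.268 and 1.65 CPM at day 11. It was lower at day 11 at both doses, to a few counts per library at 0 Gy, so that the size of that fall is loosely fixed, and the interaction was 3.90 (SE 0.68, adjusted p = 0.012). Of 29 tested members of the cornified list, 5 had a positive called interaction (all genes 0.387%), Krtdap (1.71) and Cnfn (1.48) among them, and at day 7 12 of 29 members were lower at 4 Gy than at 0 Gy (all genes lower 3.09%). Rbp2, a retinol-binding protein, Fam25c and Ly6g6c had interactions of 2.18, 2.03 and 1.94. Gsta1 and its near-identical neighbour Gm3776 had 2.84 and 2.72, and their reads cannot be assigned with certainty to one of the pair.

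On the negative side, Mcam, the adhesion molecule CD146, fell at 4 Gy from 43.7, 56.9 and 46.6 to 24.1, 39.8 and 20.7 CPM (log2 fold change -0.75) and rose at 0 Gy from 4.69, 5.83 and 8.49 to 19.3, 18.2 and 17.6 CPM, an interaction of -2.28 (SE 0.30, adjusted p = 0.0035). Edn1, endothelin 1, rose by 0.47 at 4 Gy and by 1.79 at 0 Gy and had an interaction of -1.34 (SE 0.25, adjusted p = 0.018), Lgals3bp, a secreted galectin ligand, one of -1.37 (SE 0.29, adjusted p = 0.046), and Scgb3a1, the synuclein gene Sncg and Rn7sk, the RNA of the 7SK particle, had -1.22, -1.30 and -1.78. Within 4 Gy alone, Mcam, Edn1, Sncg and Rn7sk were not called without mTG11 (-0.74, 0.40, -0.65 and 0.56), nor was Edn1 without mTG14 (0.40).

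With 7 Gy, the most positive interactions within the same limit belonged to Gm20594 (1.67), Trib3, Rn7sk (1.15) and Gigyf1 (1.05). Trib3, a pseudokinase induced by ATF4, rose at 4 Gy from 13.4, 19.6 and 15.2 to 26.2, 29.7 and 47.5 CPM and stood at 7 Gy at 14.5, 16.7 and 20.5 CPM and 13.3, 15.7 and 21.6 CPM, an interaction of 1.18 (SE 0.23, adjusted p = 0.031). The most negative ones within it were replication-dependent histone H2A genes, whose near-identical copies share reads and are uncertain one by one. H2ac11 went from 56.4, 37.2 and 37.9 to 12.5, 11.3 and 8.82 CPM at 4 Gy and from 30.1, 30.4 and 24.9 to 33.8, 26.1 and 25.1 CPM at 7 Gy, an interaction of -1.91 (SE 0.20, adjusted p = 4.3e-04), and H2ac12, H2ac23 and H2ac24 had -1.90, -1.73 and -1.71. Without mTG11, all 85 of these genes and all 115 with 0 Gy kept the sign of the interaction, though none of the 85 was called.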

How the data were processed

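Bulk RNA sequencing libraries were made with Smart3SEQ, a method that reads the 3' ends of polyadenylated RNA, from 80 ng of RNA with an integrity number above 9 per the labels. The authors deposited a table of expected counts for 50559 genes in 27 libraries, not normalised and partly fractional, so that reads of near-identical genes were shared among them. The submitters' processing notes name STAR, edgeR and GRCm39 without roles or versions, and the counting tool, the annotation and the treatment of molecular identifiers are not given in the sources used here. Libraries were mapped to day and dose by column names, and cultures mTG11, mTG12 and mTG14 were taken as replicates. Differences in level between cultures were taken out by the culture block. In a fit of a single dose or a single day, the residual spread is how much the tested change varied from culture to culture. In the interaction fits it pools the differences between cultures in the effects of both day and dose. The quasi-likelihood test draws each gene's spread towards a trend shared by all genes, so the adjusted p-values rest in part on other genes.

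Counts were rounded, genes whose sum over the libraries of a fit reached 10 were kept, and day 11 was compared with day 7 in the 6 libraries of 4 Gy with edgeR 4.0.16 (R 4.3.3), trimmed-mean normalisation (TMM) and the quasi-likelihood test with culture as a block, which left 2 residual degrees of freedom. SE values are the log2 fold change divided by the root of the F statistic. The same fit was made at 0, 2 and 7 Gy. Differences between courses were interaction terms over 12 libraries with the culture block, and 4 Gy was compared with 0 Gy at each day. Calls were made at a Benjamini-Hochberg adjusted p under 0.05 over all genes of a fit. CPM values were the deposited counts, before rounding, divided by the library total and multiplied by 1000000. Library totals over the series ran from 2528866 to 5723150. Libraries of the same day at 4 Gy differed by more than counting noise (chi-square over its degrees of freedom 5.70 to 18.0), and none was treated as a duplicate.

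Cultures paired the days: deviations from the day means correlated at 0.311, 0.276 and 0.130 within a culture, across 13257 genes, which are not independent replicates. The average between different cultures, -0.12, follows from centring each day on its own mean and is no separate check. The fits were tested on simulated data. For the main comparison, with 200 of 17383 genes changed by 1 on the log2 scale, edgeR recovered 52.5% with 7.08% false calls among its calls and DESeq2 32.5% with 1.52%. For the interaction with 0 Gy, with 200 of 19226 genes changed by 1, edgeR recovered 31.5% with 14.9% false calls and DESeq2 (1.42.0) 26% with 3.7%. With no gene changed, edgeR called 7 genes in each comparison, and DESeq2 0 in the main comparison and 1 in the interaction. The data gave 3534 calls in the main comparison, with changes of many sizes, so the simulated rates need not hold for them.

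The 38 lists (572 genes) and the comparisons were chosen with earlier results of these data known. Genes were named by rule: the 12 largest rises and falls whose mean reached 20 CPM and whose days did not overlap, the 6 most positive and most negative called interactions with 0 Gy and 4 each with 2 and 7 Gy, where the mean reached 20 CPM over the 12 libraries, up to 4 called members of each list with a mean of at least 10 CPM and the largest change, and a set always given (Mki67, Cdkn1a, Mdm2, Tg, Nkx2-1, Foxe1, Ocln, Krt5, Krt14, Isg15, Foxj1, Fos and the 5 most abundant RNAs). This named 159 genes, some of which are not reported here. Other members named in the text were chosen after their values were seen, among them Ube2c, Cdk1, Cdc20, Ccng1, H2-K1, Irf7, Egln3, Crnn, Trp63 and Gdf15. Gene positions are from GENCODE vM39, whose symbols covered 79.7% of the genes, and promoters from a RefSeq table of GRCm38.p6, matched by symbol. Alternatives were another normalisation, filters, designs, DESeq2, thinned libraries and each culture left out, and unrounded counts and edgeR's adjusted deviances were added after seeing the data.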

Additional observations from a re-analysis of the deposited data

Results flagged for a closer look

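The change from day 7 to day 11 after 4 Gy differed between doses by the test of the interaction for 115 genes against 0 Gy and for 85 genes against 7 Gy. Of the 115, 80 were called over time at 4 Gy and 102 at 0 Gy, and of the 85, 79 at 4 Gy and 33 at 7 Gy. Values are the log2 change at 4 Gy minus that at the other dose, so a positive value means a smaller fall or a larger rise at 4 Gy. Genes are ranked among called genes with a mean of 20 CPM or more over the 12 libraries. Below it, larger values were called, such as those of Slfn5 (3.96) and Cox6b2 (-2.42) against 0 Gy and Gm52500 (7.30) against 7 Gy, named after their values were seen.

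Against 0 Gy the 6 most positive above this limit were Asprv1 (3.90), Gsta1 (2.84), Gm3776 (2.72), Rbp2 (2.18), Fam25c (2.03) and Ly6g6c (1.94). Gsta1 and Gm3776 were not called over time at 4 Gy (-0.17 and -0.27), where mTG12 went up and mTG11 and mTG14 went down. The 6 most negative above it were Mcam (-2.28), Rn7sk (-1.78), Lgals3bp (-1.37), Edn1 (-1.34), Sncg (-1.30) and Scgb3a1 (-1.22). Lgals3bp rose by 1.43 at 4 Gy and by 2.79 at 0 Gy, while Scgb3a1 had log2 changes of -2.50 and -1.36.

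Against 7 Gy the 4 most positive above it were Gm20594 (1.67), Trib3 (1.18), Rn7sk (1.15) and Gigyf1 (1.05), and the 4 most negative the histone genes H2ac11 (-1.91), H2ac12 (-1.90), H2ac23 (-1.73) and H2ac24 (-1.71). Without mTG11 none of these named interactions was called, and each kept its sign.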

How the results depend on the processing

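The count of 3534 genes called over time at 4 Gy lay between 2949 and 4651 under the alternatives run, except with DESeq2 (1681) and with one culture left out (1109 to 3460). Without the replicate block of culture it was 2949. Of 159 named genes, calls were lost for 33 without mTG11, 21 without the block, 17 with DESeq2 and 7 or fewer under any other alternative. Signs turned only for genes that were not called: with one culture left out the log2 fold change ranged from -1.16 to 0.51 for Gsta1, from -1.22 to 0.39 for Gm3776, from -0.37 to 0.98 for Rn18s-rs5 and from -0.17 to 0.024 for Krt15 (turned without mTG14 for Gsta1 and Gm3776 and without mTG12 for Rn18s-rs5 and Krt15), and the cause was not tested. Without the replicate block the time change at 7 Gy gave 2644 genes, 4 Gy against 0 Gy gave 371 at day 7 and 0 at day 11, and the interactions gave 10 with 0 Gy and 16 with 7 Gy. With no filter on low counts, interactions were called for 580 genes with 0 Gy, 133 with 2 Gy and 399 with 7 Gy. With 2 Gy, DESeq2, library totals and a replicate block of culture within day each called 1 gene, and with 7 Gy that block called 146. With one culture left out, interactions with 0, 2 and 7 Gy ranged from 1 to 143, 0 to 47 and 0 to 28, and 4 Gy against 0 Gy at day 11 from 100 to 465. The scaling by totals moved the split of calls at 4 Gy to 1474 higher and 2133 lower. Among 76 list counts, 31 moved by more than 1.5 times without mTG11, 17 without the block and 14 with DESeq2. Totals of about the size given above and 3 cultures limit what small changes or genes near 3 counts can show, and a fit without one culture has 1 residual degree of freedom.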

Other observations

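Some histone genes fell with the division genes after 4 Gy. This list, which holds replication-dependent and replication-independent genes, was drawn up after the values were seen, so its counts are a description. Of 43 histone genes tested from day 7 to day 11 at 4 Gy, 18 fell, 0 rose and 25 were not called, with a median log2 fold change of -1.24 (all genes called 19.9%). H2ac23, a core histone H2A gene, had 224, 142 and 174 CPM at day 7 and 53.7, 47.8 and 45.5 CPM at day 11, and every culture fell. Of 60 tested for the interaction with 7 Gy, 10 were negative and 0 positive (all genes 0.423%). H1f5, a linker histone made in S phase, had a log2 fold change of -1.05 at 4 Gy and an interaction of -1.74 (edgeR, adjusted p = 0.0088). The replication-independent H2az1 (-0.12) and H1f0 (-0.04) were not called, and neither were the replication-dependent H1f2 (0.70), H1f4 (0.10), H2ac18 (-0.39) and H2ac19 (-0.49). Replication-dependent histone messages end without a poly(A) tail in most cells, which a poly(A)-based method reads in part, and their copies share reads. None of these interactions was called without mTG11.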
